A study of Homo sapiens with 9 samples.

Results

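Fibrinogen and the acute-phase proteins are secreted by the liver, and their genes were examined here as a set of 10 chosen by name: FGA, FGB, FGG, HP, CRP, SAA1, ORM1, SERPINA1, SERPINA3 and AHSG. All 10 were found by symbol among the 60683 genes of the count table, and 9 of them were among the 22672 genes with enough counts to be tested. The data are RNA-seq read counts from Hep3B, a human hepatocellular carcinoma line, in 9 libraries labelled as biological replicates. Cells given the DMSO vehicle were held at 20% O2 or at 1% O2, and cells given 32-134D, an inhibitor of hypoxia-inducible factors, were held at 1% O2, with 3 libraries in each of the 3 groups and 24 hours of exposure. There was no library of cells given 32-134D at 20% O2, and the labels give no dose and describe a DMEM and F12 mixture where the methods name high-glucose DMEM. Because these are bulk libraries of 1 cell line, fewer cells making a transcript and less transcript per cell cannot be told apart.

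During inflammation, interleukin-6 and related cytokines act on hepatocytes through gp130 and the transcription factor STAT3, with help from C/EBP factors, and raise the output of fibrinogen, haptoglobin, C-reactive protein, serum amyloid A and other plasma proteins. Fibrinogen is assembled from the products of FGA, FGB and FGG, which lie side by side in the genome, and thrombin cuts it to form fibrin. AHSG encodes fetuin-A, a plasma protein that binds calcium phosphate and falls during inflammation, and so is called a negative acute-phase protein.

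The Hep3B libraries contained hepatocyte transcripts, and of the markers listed for other cell types only KRT19 and EPCAM were abundant. All 8 hepatocyte markers had counts in every library, and their summed level ran from 10122 to 18033 CPM (counts relative to the size of each library, with TMM scaling). Of the 8 markers of other cell types, VWF and ACTA2 were at 0 in every library, and KRT19 and EPCAM made up nearly all of the summed 724 to 1170 CPM. KRT19 and EPCAM had means of 363 and 471 CPM in vehicle at 20% O2. Total counts ran from 6013980 in replicate 2 of vehicle at 20% O2, the shallowest library, to 40549699. Replicate 3 of 32-134D stood apart from the others of its group, its counts giving 36.4 and 32.5 for the chi-square over its degrees of freedom against replicates 1 and 2, which gave 1.998 against each other. Replicate 1 gave 6.21 and 12.0 against the others of vehicle at 20% O2, which gave 1.62 against each other. In vehicle at 1% O2 replicate 1 gave 7.90 and 11.8, and the others 2.48. The comparisons of the fibrinogen genes and AHSG are given with and without replicate 3 of 32-134D. For other named genes, the comparisons of groups that are reported are repeated without that library where leaving it out changed the call.

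The 3 fibrinogen genes lie on chromosome 4 (GRCh38), with FGB at 154562956-154571086 on the plus strand, FGA at 154583126-154590766 on the minus strand and FGG at 154604134-154612967 on the minus strand. AHSG lies on chromosome 3 at 186612923-186621318, ORM1 on chromosome 9 at 114323056-114326475 and HP on chromosome 16 at 72054592-72061055. SERPINA1 and SERPINA3 lie on chromosome 14 at 94376747-94390693 and 94612377-94624055, CRP on chromosome 1 at 159712289-159714589 and SAA1 on chromosome 11 at 18266174-18269977. All 10 are protein-coding.

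The promoters of the 4 members that the results turn on, FGA, FGB, FGG and AHSG, are shown as the 250 bases before a RefSeq transcription start on GRCh38.p14, written 5′ to 3′ on the gene's own strand. Their coordinates are chr4:154590743-154590992 for FGA (minus strand), chr4:154562761-154563010 for FGB (plus strand), chr4:154612657-154612906 for FGG (minus strand) and chr3:186612810-186613059 for AHSG (plus strand). Capitals mark matches on either strand to CTGGGAA (an element of interleukin-6 response that STAT3 binds) or TTNNGNAAT (a form of the C/EBP site).
FGA: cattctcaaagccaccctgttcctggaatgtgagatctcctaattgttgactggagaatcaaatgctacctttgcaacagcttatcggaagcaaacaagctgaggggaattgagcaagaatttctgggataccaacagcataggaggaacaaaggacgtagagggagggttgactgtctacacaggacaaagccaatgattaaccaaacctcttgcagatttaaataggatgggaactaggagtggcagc
FGB: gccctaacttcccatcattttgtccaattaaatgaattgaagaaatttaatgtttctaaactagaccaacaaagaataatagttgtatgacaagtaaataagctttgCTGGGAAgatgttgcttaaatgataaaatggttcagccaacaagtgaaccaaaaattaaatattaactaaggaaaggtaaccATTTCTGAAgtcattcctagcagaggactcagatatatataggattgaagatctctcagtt
FGG: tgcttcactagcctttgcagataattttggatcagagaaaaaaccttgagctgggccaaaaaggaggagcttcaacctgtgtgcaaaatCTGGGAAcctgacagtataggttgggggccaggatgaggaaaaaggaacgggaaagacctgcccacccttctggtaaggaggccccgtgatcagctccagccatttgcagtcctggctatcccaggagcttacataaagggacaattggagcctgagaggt
AHSG: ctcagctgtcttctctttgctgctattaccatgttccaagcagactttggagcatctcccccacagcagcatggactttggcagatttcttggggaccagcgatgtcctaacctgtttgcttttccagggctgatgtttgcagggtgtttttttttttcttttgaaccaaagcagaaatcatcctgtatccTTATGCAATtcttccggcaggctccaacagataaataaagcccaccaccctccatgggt

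FGB held the STAT3 and C/EBP letters 143 and 61 bases before the start shown, or 112 and 30 bases before its other start, and FGA held neither. FGG held the STAT3 letters at 161 bases, and AHSG held the C/EBP letters at 59 bases. Each window shown overlapped the gene span given above, and that of FGG lay wholly inside it. Of 35116 human promoter windows of this length, 9.15% held the STAT3 letters and 9.85% the C/EBP letters. The table had 10 windows for 8 of the members, with none for HP or SAA1 and overlapping ones for FGB. These 10 windows held the STAT3 letters in 3 and the C/EBP letters in 6, with the same letters of FGB counted in both of its windows. ACGTG, a core to which hypoxia-inducible factors bind, was in none of the 10 windows and in 18.5% of all windows. GCGTG, the core bound by the aryl hydrocarbon receptor and also by hypoxia-inducible factors, was in 1 member window, of SERPINA1, and in 32.2% of all windows. A match describes these letters only.

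Hep3B expressed 6 of the 10 members at high or moderate levels. SERPINA1 and AHSG had 515544 and 370546 counts in all, FGA 32510, FGG 12601, ORM1 9410 and FGB 8510. HP, CRP and SERPINA3 had 44, 37 and 40 counts over the 9 libraries, and SAA1 had 0 in every library, where 3 counts would have stood for 0.0740 to 0.499 CPM. How reads that map to several genes were counted is not given in the sources used here, so reads that SAA1 shares with its copy SAA2, or HP with HPR, may have been left out of these counts. The classical inflammation markers of the set were thus counted near or at 0, and the quantitative results rest on the other 6 genes.

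Per kilobase of exon, AHSG was the most abundant member in vehicle at 20% O2, at 668 ± 10.4 CPM per kb (SD, n = 3), followed by SERPINA1 at 502 ± 15.2. ORM1 followed at 51.8 ± 4.58, then FGA at 37.8 ± 1.28, FGG at 15.9 ± 1.62 and FGB at 12.7 ± 1.69, and no libraries of neighbours in this order overlapped. In vehicle at 1% O2, FGA at 45.7 ± 0.497 lay above ORM1 at 38.8 ± 1.16, and FGG at 18.5 ± 0.759 and FGB at 18.03 ± 0.697 overlapped. That overlap depended on the length assigned to each gene, since per kilobase of the longest transcript FGG was at 31.9 to 34.4 and FGB at 24.0 to 25.8 CPM per kb there. With 32-134D at 1% O2, AHSG at 483 ± 169 and SERPINA1 at 425 ± 51.5 overlapped, as did FGG at 10.7 ± 6.16 and FGB at 9.04 ± 5.64. Both overlaps came from replicate 3. AHSG was at 584, 578 and 288 in replicates 1, 2 and 3, and SERPINA1 at 457, 453 and 366, so their order turned only in replicate 3. FGG, at 14.8, 13.6 and 3.61, was above FGB, at 12.4, 12.2 and 2.53, within each library.

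Fibrinogen transcripts were compared first, beginning with FGA, the gene of the Aα chain, which carries a fibrinopeptide that thrombin removes. FGA stood at 145, 155 and 149 CPM in replicates 1, 2 and 3 of vehicle at 20% O2 and at 183, 181 and 179 CPM in those of vehicle at 1% O2. With 32-134D at 1% O2 it stood at 127, 125 and 23.5 CPM. The libraries of vehicle at 1% O2 were above all others, replicates 1 and 2 of 32-134D were a little below vehicle at 20% O2, and replicate 3 was far below every other library. FGB, the gene of the Bβ chain, stood at 37.1, 29.05 and 36.9 CPM in vehicle at 20% O2, at 47.4, 48.1 and 51.0 CPM in vehicle at 1% O2 and at 33.5, 33.1 and 6.86 CPM with 32-134D. FGG, the gene of the γ chain, stood at 63.2, 51.5 and 56.9 CPM, then 69.8, 65.5 and 64.8 CPM, and then 53.4, 48.9 and 12.99 CPM in the same order. For both genes vehicle at 1% O2 again did not overlap either of the other groups, while replicates 1 and 2 of 32-134D fell within the range of vehicle at 20% O2 for FGB, and for FGG replicate 1 did and replicate 2 lay just below it. The low end of that range was set by replicate 2 of vehicle at 20% O2, the shallowest library. For both genes, replicates 1 and 2 of 32-134D lay below replicates 1 and 3 of vehicle at 20% O2. Relative to total counts without TMM scaling, the vehicle groups overlapped for FGA, at 154.8 to 164.5 CPM at 20% O2 and 161.3 to 169.9 CPM at 1% O2. They also overlapped for FGG, and not for FGB.

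**Figure D1:**
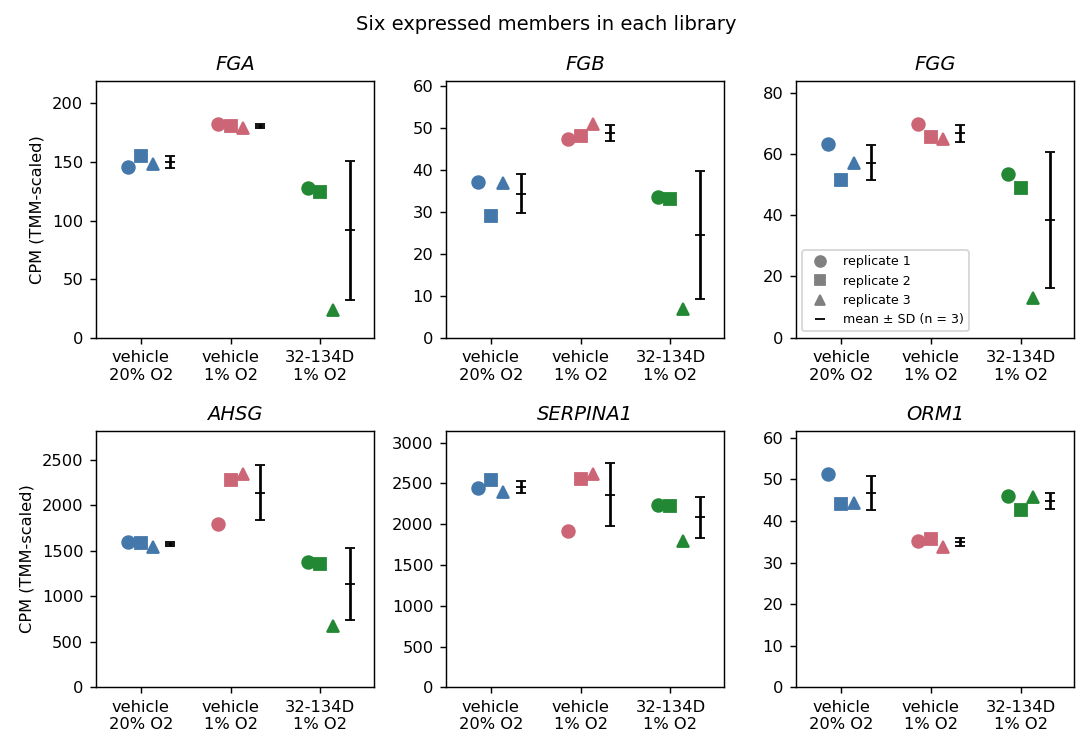
Levels of the 6 expressed members in each of the 9 libraries, in TMM-scaled CPM, with the mean and SD (n = 3) of each group as a bar beside its points. FGA, FGB, FGG and AHSG are highest in vehicle at 1% O2, replicate 3 of 32-134D lies far below the rest for the 3 fibrinogen genes (23.5 CPM for FGA), and ORM1 is lowest in vehicle at 1% O2.

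Hypoxia alone was assessed by comparing vehicle at 1% O2 with vehicle at 20% O2. Calls needed a fold change above 1.5 and an adjusted p (Benjamini-Hochberg) below 0.05 in edgeR's quasi-likelihood test. None of the 9 tested members was called higher, against 19.5% of all genes tested, with 1 member at an unadjusted p below 0.05 and 0 called by DESeq2. HP and CRP, 2 of the 9, were called lower, against 20.3% of all genes tested.

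The fibrinogen genes were 1.16- to 1.40-fold higher in vehicle at 1% O2, by log2 0.27 for FGA (95% interval -0.53 to 1.07, adjusted p = 0.567), 0.49 for FGB (-0.26 to 1.24, 0.260) and 0.22 for FGG (-0.46 to 0.90, 0.594). The 9 libraries shared 1 estimate of the spread, which included replicate 3 of 32-134D. Without that library the differences were 0.27 (SE 0.06, adjusted p = 0.00032), 0.48 (SE 0.08, 8.49e-06) and 0.21 (SE 0.08, 0.0179), and these passed the adjusted p but not the fold threshold, in a fit where 30.1% of all genes tested passed the adjusted p upward. Without replicate 2 of vehicle at 20% O2 as well, FGA and FGB passed the adjusted p and FGG did not (log2 0.16, 0.0999). Removing a trend over GC content and exon length left FGB at 0.10 and turned FGA to -0.056 and FGG to -0.18 on the log2 scale, none of them passing the adjusted p. With all 9 libraries and total library size, FGA was at log2 0.059, FGB at 0.28 and FGG at 0.0028. Upper quartile scaling gave 0.079, 0.30 and 0.023, and none of these values passed the adjusted p.

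32-134D at 1% O2 was then compared with vehicle at 1% O2, so that both comparisons share the vehicle libraries at 1% O2. FGA, FGB and AHSG, 3 of the 9 tested members, were called lower, against 13.7% of all genes tested. None was called higher, against 16.2% of all genes tested, with 3 members at an unadjusted p below 0.05 in that direction and 0 called by DESeq2. FGA was 1.96-fold lower (log2 -0.97, 95% interval -1.77 to -0.17, adjusted p = 0.0457) and FGB 1.97-fold lower (log2 -0.98, -1.72 to -0.24, 0.0308), while FGG was at log2 -0.78 (-1.45 to -0.11, 0.0534).

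The size of the fibrinogen difference rested on replicate 3 of 32-134D. Without it, the 3 genes were lower by less than the 1.5-fold threshold and with smaller errors: log2 -0.52 (SE 0.07, adjusted p = 1.66e-07) for FGA, -0.55 (SE 0.09, 3.51e-06) for FGB and -0.38 (SE 0.08, 0.000228) for FGG, where 27.1% of all genes tested passed the adjusted p downward. AHSG alone was then called lower, 1 of 9 members against 13.9% of all genes tested, and HP and CRP were called higher, against 16.4%. With all 9 libraries, FGA and FGB also lost their call in DESeq2 (adjusted p = 0.174 and 0.143), in a fit of only the 2 groups (0.139 and 0.105), and when any 1 vehicle library at 1% O2 (FGA 0.104 to 0.109, FGB 0.0711 to 0.0965) or replicate 1 of vehicle at 20% O2 (0.0923 and 0.0672) was left out. FGA lost it also without replicate 2 or 3 of vehicle at 20% O2 (0.0709 and 0.0639), while FGG gained a call without replicate 1 or 2 of 32-134D (0.0147 and 0.0341).

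**Figure D2:**
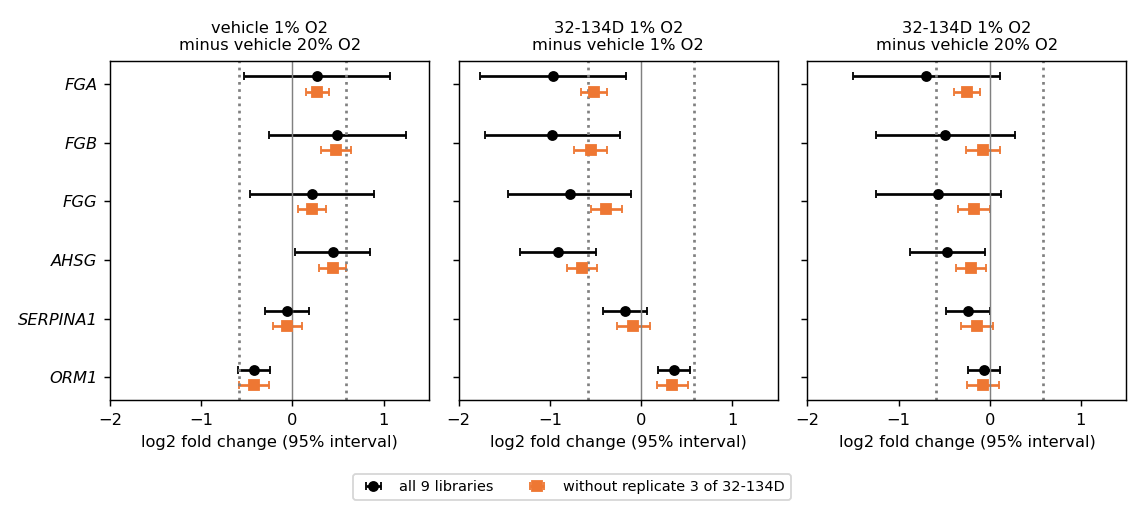
log2 fold changes with 95% intervals for the 6 expressed members in the 3 comparisons, with all 9 libraries (black) and without replicate 3 of 32-134D (orange), where dotted lines mark a 1.5-fold change. Without that library the fibrinogen estimates under 32-134D move toward 0, from -0.97 to -0.52 for FGA, and the intervals narrow, while ORM1 hardly moves.

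The proportions of the fibrinogen transcripts were also compared. Per kilobase, FGA was 3.03 ± 0.543 times FGB in vehicle at 20% O2, 2.54 ± 0.123 in vehicle at 1% O2 and 2.51 ± 0.146 with 32-134D (SD, n = 3). In replicate 3 of 32-134D this ratio was 2.34, against 2.61 and 2.58 in replicates 1 and 2, although both transcripts were several-fold lower there. In vehicle at 20% O2 the ratio ran from 2.68 to 3.66, the highest being replicate 2, the shallowest library. The ratio of FGA to FGG was 2.40 ± 0.326, 2.47 ± 0.0763 and 2.05 ± 0.355 in the same order of groups, and replicate 3 of 32-134D was the lowest library at 1.64. These ratios depend on the length assigned to each gene, and with the longest transcript in place of all exons the ratio of FGA to FGG became 1.46, 1.50 and 1.24.

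The negative acute-phase member, AHSG, had the same order of groups as fibrinogen. It stood at 1590.5, 1583 and 1545 CPM in vehicle at 20% O2, at 1796, 2273 and 2347 CPM in vehicle at 1% O2 and at 1374, 1359 and 678 CPM with 32-134D. The 3 groups did not overlap with TMM scaling, with vehicle at 1% O2 highest and replicate 3 of 32-134D lowest. Relative to total counts, replicate 1 of vehicle at 1% O2, at 1671 CPM, lay within the range of vehicle at 20% O2 (1619 to 1694 CPM). AHSG was 1.36-fold higher in vehicle at 1% O2 than in vehicle at 20% O2 (log2 0.44, 95% interval 0.03 to 0.86, adjusted p = 0.0652), and without replicate 3 of 32-134D the adjusted p was 3.23e-06 at the same log2 0.44. With all 9 libraries, this difference was log2 0.23 (0.328) with total library size and 0.17 (0.449) with the GC and length trend removed. With 32-134D AHSG was 1.88-fold lower than in vehicle at 1% O2 (log2 -0.91, -1.32 to -0.50, adjusted p = 0.00118). This call was kept without replicate 3 of 32-134D (log2 -0.65, SE 0.08, 6.77e-08) and when each of the other libraries was left out in turn.

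SERPINA1 encodes α1-antitrypsin, the inhibitor of neutrophil elastase, and was the most counted member. Its levels were 2442, 2544 and 2399 CPM in vehicle at 20% O2, 1915, 2554 and 2622 CPM in vehicle at 1% O2 and 2239.7, 2222 and 1793 CPM with 32-134D. The groups overlapped, and the lowest libraries were replicate 3 of 32-134D and replicate 1 of vehicle at 1% O2. The difference was log2 -0.06 for vehicle at 1% O2 against vehicle at 20% O2 (95% interval -0.30 to 0.18, adjusted p = 0.689) and -0.18 for 32-134D against vehicle at 1% O2 (-0.42 to 0.06, 0.208), so a 1.5-fold change lay outside both intervals. The direction of the first turned when replicate 1 of vehicle at 1% O2 was left out (log2 0.072), and that of the second when total library size was used for scaling (log2 0.0090). Replicate 1 of vehicle at 1% O2 was the library with the lowest AHSG of its group too, 1.29-fold below the other 2, against 1.35-fold for SERPINA1.

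ORM1, which encodes α1-acid glycoprotein, a carrier of drugs in plasma, had the opposite signs to fibrinogen with TMM scaling. It stood at 51.4, 44.1 and 44.4 CPM in vehicle at 20% O2, at 35.3, 35.7 and 33.7 CPM in vehicle at 1% O2 and at 45.9, 42.7 and 45.8 CPM with 32-134D. The libraries of vehicle at 1% O2 were below all others, and those of the other groups overlapped, replicate 3 of 32-134D included. ORM1 was 1.34-fold lower in vehicle at 1% O2 than in vehicle at 20% O2 (log2 -0.42, 95% interval -0.60 to -0.24, adjusted p = 0.000539) and 1.28-fold higher with 32-134D than in vehicle at 1% O2 (log2 0.36, 0.19 to 0.53, 0.00196), both under the fold threshold. The first passed it with total library size, upper quartile scaling or the GC and length trend removed (log2 -0.61 to -0.64), and the second with that trend removed (log2 0.59). ORM1 and its neighbour ORM2 are near-identical copies, so the division of reads between them is uncertain. ORM2 was lower in vehicle at 1% O2 (log2 -0.90, adjusted p = 4.7e-05) and was at log2 0.48 with 32-134D (0.00787), under the fold threshold. Without replicate 3 of 32-134D it was called higher (log2 0.60, adjusted p = 2.37e-05).

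The scarce transcripts are given as counts. HP, which encodes haptoglobin, the scavenger of free hemoglobin, had 5, 2 and 11 counts in vehicle at 20% O2, 0, 3 and 0 in vehicle at 1% O2 and 9, 14 and 0 with 32-134D. CRP, which encodes C-reactive protein, had 1, 4 and 13 counts, then 0, 0 and 2, and then 9, 8 and 0. SERPINA3, which encodes α1-antichymotrypsin, an inhibitor of cathepsin G, had 6, 0 and 8 counts, then 3, 0 and 3, and then 12, 4 and 4. The vehicle group at 1% O2 had the fewest counts of all 3 genes, and HP and CRP were again at 0 in replicate 3 of 32-134D.

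Scaled by depth, HP was 9.91-fold lower in vehicle at 1% O2 than in vehicle at 20% O2 on 3 against 18 counts (95% exact interval 2.89 to 52.5, for counting error only), and CRP was 14.9-fold lower on 2 against 18 counts (3.56 to 132). Both were called in edgeR (adjusted p = 0.0308 and 0.0163). The HP call was lost without any 1 library of vehicle at 20% O2 (0.0518 to 0.0974) and without replicate 1 or 3 of vehicle at 1% O2 (0.120 and 0.0905), and the CRP call without replicate 3 of vehicle at 20% O2 (0.107) or replicate 1 of vehicle at 1% O2 (0.0718). Without replicate 2 of vehicle at 1% O2 for HP, or replicate 3 for CRP, that group held 0 counts, and a fitted fold is then no bound. With 32-134D, HP was 7.76-fold higher than in vehicle at 1% O2 on 23 against 3 counts (2.34 to 40.4) and CRP 8.60-fold higher on 17 against 2 (2.04 to 76.8), without passing the adjusted p (0.0539 and 0.0632). Without replicate 3 of 32-134D both were called (0.00245 and 0.0059). Each was also called when its only library with counts in vehicle at 1% O2 was left out, HP at 0.0130 and CRP at 0.0352.

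SERPINA3 was 3.85-fold lower in vehicle at 1% O2 than in vehicle at 20% O2 on 6 against 14 counts (1.39 to 12.2), with an adjusted p of 0.0747, and 3.37-fold higher with 32-134D than in vehicle at 1% O2 on 20 against 6 (1.31 to 10.3), with 0.0979. The first was called when replicate 2 of vehicle at 20% O2 was left out (0.0401). HPR, a near-identical copy of HP, was at 0 counts in the 3 libraries of vehicle at 1% O2 and in replicate 3 of 32-134D, so reads of the pair may be divided between them or left out. SAA2, the copy of SAA1, had too few counts to be tested.

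32-134D at 1% O2 was last compared with vehicle at 20% O2, which asks how far the members differed from the well-oxygenated cells. None of the 9 was called, against 3.52% of all genes tested, with 1 member, AHSG, at an unadjusted p below 0.05 and 0 called by DESeq2. FGA was at log2 -0.70 (95% interval -1.50 to 0.11, adjusted p = 0.280), FGB at -0.49 (-1.25 to 0.28, 0.447), FGG at -0.57 (-1.25 to 0.12, 0.303) and AHSG at -0.47 (-0.88 to -0.06, 0.147). Without replicate 3 of 32-134D these were -0.24 (adjusted p = 0.0172), -0.07 (0.701), -0.17 (0.220) and -0.20 (0.105), and none of the 9 was called, against 3.14% of all genes tested, with 2 members at an unadjusted p below 0.05. Leaving out replicate 2 of vehicle at 20% O2 as well gave FGA -0.22 (0.0690), FGB -0.15 (0.357), FGG -0.22 (0.128) and AHSG -0.20 (0.223). ORM1 was at log2 -0.06 (-0.24 to 0.12, 0.714), an interval that left out changes of 1.5-fold, and SERPINA1 at -0.24 (-0.48 to 0.00, 0.206).

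The 32-134D libraries were also examined singly. Among the 9878 genes with a mean of at least 10 CPM, replicate 3 had 23 genes more than 4-fold below the mean of replicates 1 and 2, or 0.233%, and FGA and FGB were among them. FGA was 5.36-fold lower (rank 15 from the lowest), FGB 4.80-fold lower (rank 19), FGG 3.92-fold lower (rank 25) and AHSG 2.01-fold lower (rank 130). SERPINA1 was 1.24-fold lower (rank 1137), and ORM1 was 1.03-fold higher (rank 5991). No more than 21 genes lay over 2-fold below the rest of their group in any other library, against 136 in this one. Replicates 1 and 2 of 32-134D were close to each other for all 6 genes.

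**Figure D3:**
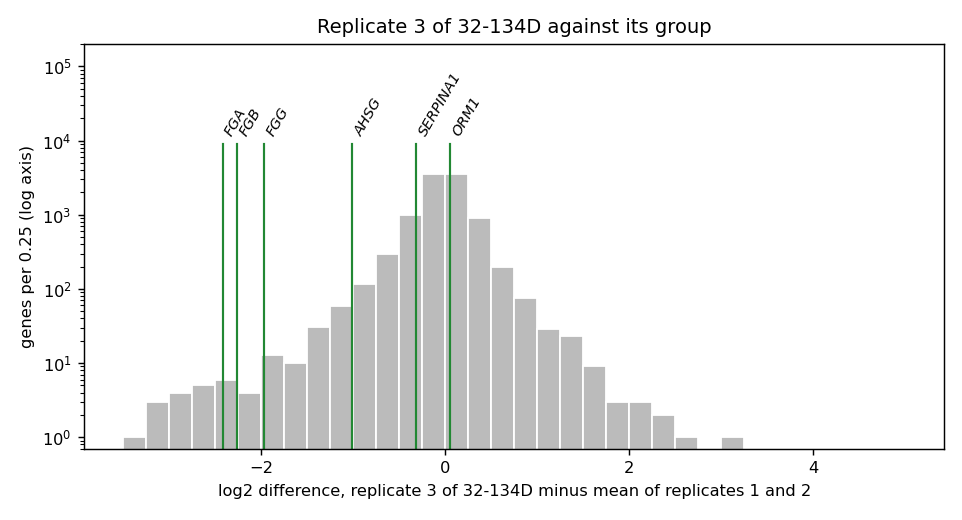
Distribution of the log2 difference between replicate 3 of 32-134D and the mean of replicates 1 and 2 over 9878 genes with a mean of at least 10 CPM, with the number of genes on a log axis. Green lines mark the 6 expressed members, of which FGA (-2.42), FGB (-2.26) and FGG (-1.97) lie in the far left tail and ORM1 (0.05) at the centre.

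Some other hepatocyte genes were also lower in replicate 3 of 32-134D. TTR, the gene of transthyretin, was at 37.9, 34.5 and 9.79 CPM in replicates 1, 2 and 3, and KNG1, the gene of kininogen near AHSG, at 34.4, 32.6 and 5.81 CPM. All 8 hepatocyte markers were lower there than in replicates 1 and 2, 4 of them over 2-fold, and their sum was 16484, 16188 and 10122 CPM. Of 9 other genes listed here as positive acute-phase and with a mean of at least 10 CPM, 6 were lower there, 1 of them over 2-fold. A2M (log2 0.65) and CP (log2 0.44) were higher. Of 10 other negative acute-phase genes at that level, 10 were lower, 3 of them over 2-fold. Among 8 liver transcription factors, CEBPA was at 364, 347 and 111 CPM and ONECUT1 at 104, 116 and 40.3 CPM, while HNF4A was at 349, 353 and 380 CPM. CYP1A1, a target of the aryl hydrocarbon receptor, was at 104, 128 and 1086 CPM, all far above its means of 6.63 CPM in vehicle at 20% O2 and 1.50 CPM in vehicle at 1% O2. The summed markers of other cell types were 843, 832 and 724 CPM, and the part of these differences in the fibrinogen result was not tested.

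The likeness of the fibrinogen genes to each other was measured as the root mean square difference of centred log2 CPM over the libraries, against 13910 genes of at least 1 CPM. Over all 9 libraries, FGA was nearest to FGB (0.18), then TTR (0.18) and FGG (0.20), and FGB was nearest to FGG (0.17), then FGA (0.18). FGG was nearest to TTR (0.15), then FGB (0.17). AHSG held ranks 14 to 21 from these 3 genes, and ORM1 ranks 8411 to 9305. Without replicate 3 of 32-134D, FGB fell to rank 1682 from FGA at 0.17, FGG to rank 231 from FGA, and AHSG held rank 614 from FGA, so the first ranks were seen only with that library included.

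The other genes listed here as positive acute-phase, a class that was not tested in these cells, were mostly lower in vehicle at 1% O2. Of 20 such genes, 18 were tested. In vehicle at 1% O2, 11 were called lower and 1 higher than in vehicle at 20% O2 (20.3% and 19.5% of all genes tested). The median log2 difference was -1.10 beside 0.00 over all genes tested. Some of the 18 were scarce, and ITIH4, SAA4 and ITIH3, with 25, 108 and 157 counts over the 9 libraries, were among the 11. Complement C3 was at 1357, 1647 and 1647 CPM in vehicle at 20% O2 and at 392, 531 and 549 CPM in vehicle at 1% O2 (log2 -1.66, adjusted p = 3.55e-06). FN1, the gene of fibronectin, was lower by log2 -1.36 (9.83e-08), and CP, the gene of ceruloplasmin, was the 1 that was higher (log2 0.85, 0.000108). With 32-134D, 6 of the 18 were called higher than in vehicle at 1% O2 and 1 lower (16.2% and 13.7% of all genes tested, median 0.70 beside -0.01), and 8 and 1 without replicate 3. C3 stood at 1284, 1293 and 693 CPM there (log2 1.15, 0.000152), and FN1 was higher by log2 1.17 (8.43e-07), with CP lower by log2 -0.62 (0.00145). A2M was also among the 6 (log2 0.65, 0.00208), and without replicate 3 it was under the fold threshold (log2 0.40). With TMM scaling, FGA, FGB, FGG and AHSG had the signs of CP in these comparisons, and ORM1 those of C3 and FN1.

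Of 14 further negative acute-phase genes, 6 were called lower in vehicle at 1% O2 than in vehicle at 20% O2 (median log2 -0.15), against 20.3% of all genes tested. With 32-134D, 3 were called higher and 2 lower than in vehicle at 1% O2 (median -0.14), against 16.2% and 13.7% of all genes tested, and without replicate 3 these counts were 5 and 0. The lower ones were TTR (log2 -0.92, adjusted p = 0.0205) and TF, the gene of transferrin (log2 -0.80, 0.0152), which without replicate 3 were at log2 -0.53 and -0.46, under the fold threshold like the fibrinogen genes. ITIH2, which encodes an inter-α-trypsin inhibitor heavy chain, went the other way, lower in vehicle at 1% O2 (log2 -1.69, 2.66e-05) and higher with 32-134D (log2 1.13, 0.00109).

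**Figure D4:**
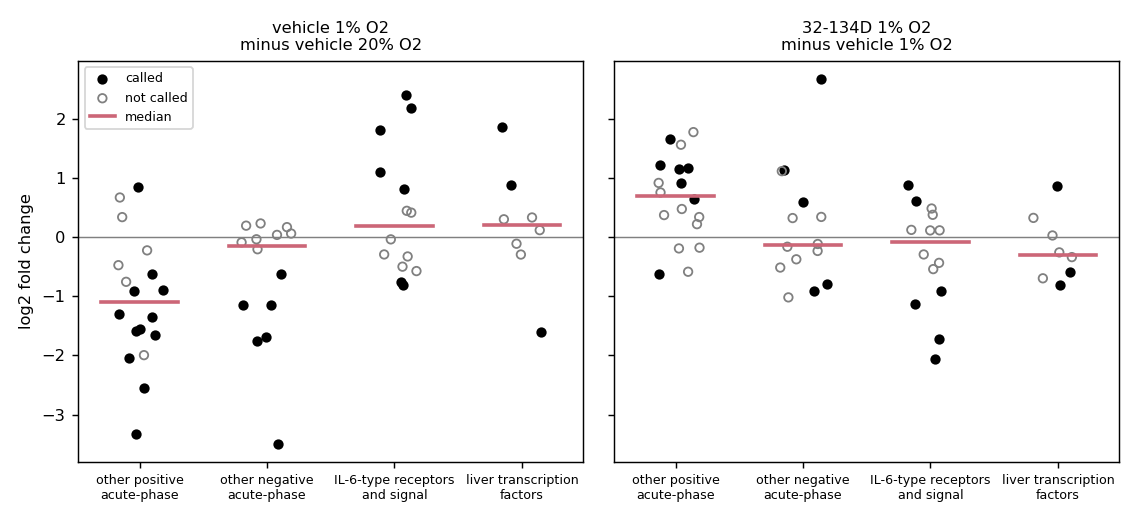
log2 fold changes of 4 lists of related genes that are not members, for vehicle at 1% O2 against vehicle at 20% O2 and for 32-134D against vehicle at 1% O2, with called genes filled, other tested genes open and red bars at the medians. The other genes listed as positive acute-phase lie mostly below 0 in the first comparison (median -1.10) and above 0 in the second (median 0.70).

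Most of the cytokine genes examined were scarce, and LIF and IL11 were not. Of 8 cytokine genes, 3 were tested, and IL1A and OSM had no counts in any library, with 1 count each for IL6 and IL1B, 8 for CTF1 and 10 for TNF. IL11, an interleukin-6-type cytokine, stood at 2.94, 2.20 and 1.49 CPM in vehicle at 20% O2, at 6.41, 5.99 and 5.70 CPM in vehicle at 1% O2 and at 4.42, 4.51 and 9.42 CPM with 32-134D. It was higher in vehicle at 1% O2 than in vehicle at 20% O2 (log2 1.53, adjusted p = 0.000781) and also with 32-134D than in vehicle at 20% O2 (log2 1.53, 0.00682). For 32-134D against vehicle at 1% O2 it was at log2 0.00 (0.993), or -0.44 without replicate 3 of 32-134D (0.0238), under the fold threshold. LIF, another cytokine of that type, was lower in vehicle at 1% O2 (log2 -0.90, adjusted p = 0.0100) and higher with 32-134D (log2 0.79, 0.0191), a call lost without replicate 3 of 32-134D (log2 0.36, 0.0651). Of 14 genes of interleukin-6-type and interleukin-1 reception and signalling, 5 were called higher and 2 lower in vehicle at 1% O2 than in vehicle at 20% O2, against 19.5% and 20.3% of all genes tested. With 32-134D, 2 were called higher and 4 lower than in vehicle at 1% O2, against 16.2% and 13.7%. IL6R, the receptor's ligand-binding chain, was higher in vehicle at 1% O2 (log2 1.10, adjusted p = 2.09e-06) and lower with 32-134D (log2 -0.91, 1.62e-05), whereas IL6ST, the gene of gp130, was lower and then higher (log2 -0.76, 5.3e-06 and log2 0.88, 1.79e-06). SOCS3, which encodes the feedback inhibitor of this pathway, was higher in vehicle at 1% O2 (log2 2.19, 3.82e-07), lower with 32-134D (log2 -1.13, 7.92e-05) and still higher than in vehicle at 20% O2 (log2 1.06, 0.00547). STAT3 was at log2 -0.04 (0.686) and 0.11 (0.196).

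Of the 8 liver transcription factors, 2 were called higher and 1 lower in vehicle at 1% O2 than in vehicle at 20% O2 (19.5% and 20.3% of all genes tested), and 1 higher and 2 lower with 32-134D than in vehicle at 1% O2 (16.2% and 13.7%). CEBPB was higher in vehicle at 1% O2 (log2 1.87, adjusted p = 9.41e-09) and lower with 32-134D (log2 -0.81, 3.55e-05), and CEBPA was lower (log2 -1.61, 0.000213) and then higher (log2 0.87, 0.0189, or 1.25 without replicate 3 of 32-134D). RELA followed CEBPB (log2 0.87, 1.33e-07 and log2 -0.59, 1.09e-05), and HNF4A was at log2 -0.11 (0.270) and 0.03 (0.800).

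The genes around the members moved in both directions. Of 23 neighbours, 20 were tested, and 10 were called lower and 4 higher in vehicle at 1% O2 than in vehicle at 20% O2, against 20.3% and 19.5% of all genes tested. With 32-134D, 4 were called higher and 2 lower than in vehicle at 1% O2, against 16.2% and 13.7%, and without replicate 3 of 32-134D these counts were 10 and 3. PLRG1, a splicing factor gene beside FGB, was at 66.9, 63.4 and 63.3 CPM in vehicle at 20% O2, at 164, 148 and 145 CPM in vehicle at 1% O2 and at 90.4, 88.2 and 87.1 CPM with 32-134D, with replicate 3 in the same place as its group. It was higher in vehicle at 1% O2 (log2 1.24, adjusted p = 2.76e-09) and lower with 32-134D (log2 -0.78, 4.76e-07). KNG1, near AHSG, was lower in vehicle at 1% O2 (log2 -1.53, 0.00484), where AHSG was at log2 0.44, and with 32-134D it was at log2 0.81 (0.108), or 1.27 and called without replicate 3 (2.08e-11). SERPINA6, the gene of corticosteroid-binding globulin, lies in the cluster of SERPINA1 and SERPINA3 and was lower in vehicle at 1% O2 (log2 -1.15, 2.4e-05) and higher with 32-134D (log2 0.59, 0.00671, or 0.81 without replicate 3).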

How the data were processed

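Hep3B RNA-seq libraries (3 groups of 3) were grouped by the labels. The authors deposited raw read counts per Ensembl gene (release 100, GRCh38), made with FastQC, Bbduk, STAR and featureCounts, whose versions and strand setting are not given in the sources used here. All 9 columns were matched to samples, and 0 were left unmapped.

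Counts were scaled by TMM and tested in 1 quasi-likelihood fit of the 9 libraries with edgeR 4.0.16 (R 4.3.3) for the 22672 genes with summed counts of at least 10. Calls needed a Benjamini-Hochberg adjusted p below 0.05 over all these genes and a fold change above 1.5. Levels are TMM-scaled CPM, per kilobase of GENCODE 29 exon where genes are compared. Low counts are given as ratios with exact binomial intervals (95%), and differences of single libraries used a pseudocount of 0.1 CPM. Such intervals cover counting error only. The p-values set each difference against the spread between libraries of a group, estimated from all libraries in the fit together. The labels call these libraries biological replicates and say no more of how the cultures were made. Promoters came from RefSeq GRCh38.p14.

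Named genes are the members, the genes nearest to them in pattern, and genes of lists of related function, position and cell type; CYP1A1 and the genes lowest in 1 library were looked at to describe that library. The members and lists were chosen with earlier results of these data known. Alternatives were DESeq2 1.42.0, other scalings, filters, fold thresholds and lengths, fits of only 2 groups, thinning, a replicate block, a GC and length trend, and leaving out each library; leaving out 2 libraries together was chosen after seeing the data. The scripts were checked on simulated data in which 200 genes had known changes. The values of some single genes are not reported here.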

Additional observations from a re-analysis of the deposited data

How the results depend on the processing

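Single members kept their direction and their side of the thresholds in 459 of the values recomputed under alternatives, gained a call in 24, lost one in 36 and turned sign in 9. With 32-134D against vehicle at 1% O2, AHSG was called lower under every alternative except the 2-fold threshold, at adjusted p up to 0.0142. The count of members called lower there, 3 of 9, was 1 with total library size, upper quartile scaling, DESeq2, 10 counts needed in every library, only the 2 groups, the GC and length trend removed, or both replicate 3 of 32-134D and replicate 2 of vehicle at 20% O2 left out, was 0 at a 2-fold threshold, and ran from 1 to 4 when each library was left out in turn. The count called higher, 0, was 2 with total library size, no filter, the GC and length trend removed or both libraries left out, 1 with upper quartile scaling or no fold threshold, and ran from 0 to 2. In vehicle at 1% O2 against vehicle at 20% O2, the count called lower, 2, was 4 under total library size, 0 when every library needed 10 counts (which drops HP and CRP) or when counts were thinned to the smallest library, and ran from 0 to 2, with 0 without replicate 3 of vehicle at 20% O2 or replicate 1 of vehicle at 1% O2. Against vehicle at 20% O2, 32-134D had 1 member lower, FGA (log2 -0.68), when no filter was used, beside 0. Except where given, the cause was not tested.

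The values that turned sign were FGA (-0.056) and FGG (-0.18) for vehicle at 1% O2 against 20% O2 with the GC and length trend removed, SERPINA1 in that comparison without replicate 1 of vehicle at 1% O2 (0.072, with -0.14 to 0.072 over each library left out), SERPINA1 for 32-134D against vehicle at 1% O2 with total library size (0.0090), and, for 32-134D against vehicle at 20% O2, HP without replicate 3 of 32-134D (0.080, with -1.17 to 0.080 over each library left out) or without both libraries (0.061), ORM1 without replicate 1 of vehicle at 20% O2 (-0.10 to 0.020 over each left out), and SERPINA3 without that library or replicate 2 of 32-134D (-0.70 to 0.26). Total library size and upper quartile scaling shifted the median of all genes by -0.21 and -0.19 (log2) in the hypoxia comparison and by 0.18 and 0.12 with 32-134D, and relative to that shift the members moved little.

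Replicate numbers did not pair the libraries: deviations of same-numbered libraries correlated from -0.144 to 0.0620, and 1 of 9 libraries correlated best with its own number. With the number as a replicate block, 4 members were called lower with 32-134D, FGG being gained (log2 -0.90, adjusted p = 0.0204), 2 were called lower in hypoxia and 0 in the third comparison. Depth limits HP, CRP and SERPINA3, whose groups hold from 2 to 23 counts, and SAA1, and 3 libraries per group with 1 standing apart limit the fibrinogen genes.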
